A study of Bos taurus with 6 samples.

Results

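BRDT, BRD2 and BRD3 encode proteins of the BET family and were taken as the rows of the deposited gene table that carry these symbols. They are 3 of the 47249 genes of the table, and 8 of the 108527 entries of the transcript table belong to them. All 3 genes and 4 of the 8 transcript entries passed the filter on low values, which asked for 3 or more of the 6 libraries to reach an FPKM of 1 (FPKM counts sequenced fragments relative to transcript length and to the mapped total of the library).

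BET proteins carry tandem bromodomains, which bind acetylated lysines of histones, and an extra-terminal domain, which recruits other proteins. BRD2 and BRD3 are made in most cell types and couple acetylated chromatin to transcription. BRDT is made in male germ cells, where it takes part in the transcription of meiotic and post-meiotic genes and in the removal of acetylated histones from the chromatin of elongating spermatids.

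The study set immature against mature testes of Wandong cattle, a native breed. Testes of 3 calves aged 3 months and of 3 bulls aged 3 years were sampled, 1 library per animal, and no animal was treated. Total RNA was depleted of ribosomal RNA and sequenced as strand-specific libraries. The comparison is of whole tissue and of animals of different age, so a smaller number of cells of a type and less RNA per cell cannot be told apart.

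The library labelled calf 3, called calf 3 below, stood apart from its group. Its log2 values correlated with those of calf 1 and calf 2 at 0.764 and 0.770, against 0.979 between calf 1 and calf 2 and 0.968 to 0.971 among the bulls. The summed FPKM of 8 rows of Leydig cell markers was 0.502 in calf 3 and 1141 or more in every other library, with 4 of the rows listed at 0. Among 9 Sertoli cell markers, calf 3 had GATA4, WT1 and FSHR at 0, and the sum was 439 there against 2838 and 2713 in calf 1 and calf 2 and 382 to 401 in the bulls. CLU alone was at 423 in calf 3. There 3 of the 9 markers reached an FPKM of 1, against all 9 in every other library. All 15 markers of oligodendrocytes, astrocytes and neurons were at an FPKM of at least 1 in calf 3, with a sum of 15268 against 30.9 to 48.0 elsewhere. Its label is therefore in doubt, and the main tests below are given with and without it. Markers of the germ cells known to make BRDT differed between the groups as well. The summed FPKM of 10 spermatocyte markers was 28.0, 34.4 and 8.34 in the calves, in order of number, and 399, 488 and 419 in the bulls. That of 7 round spermatid markers was at most 9.34 in the calves and at least 782 in the bulls, and that of 8 elongating spermatid markers at most 4.13 and at least 14144. Spermatogonial markers, 10 in number, summed to 118, 153 and 302 in the calves and to 152 to 157 in the bulls. In calf 3, UCHL1 (201) and ID4 (50.2) gave most of that sum, while DMRT1 (0.0938), SALL4 (0.0655) and STRA8 (0.290) were near 0. The markers differed in direction. In calf 1, calf 2 and calf 3, 6, 7 and 6 of them were above every bull, and in each bull 3 were above every calf. The part of these cell types in the differences below was not tested. Peritubular myoid (14.7 to 47.2 in calves, 60.3 to 69.9 in bulls), endothelial (8.91 to 33.3 and 10.7 to 15.3), macrophage (32.3 to 58.9 and 124 to 195) and red blood cell (1.39 to 3.58 and 0.220 to 1.26) markers were summed in the same way. The macrophage sum in bulls was mostly AIF1 (94.2 to 167, against 10.8 to 21.4 in calves). Of the other macrophage markers, CD14 was higher in every bull, CSF1R and CD68 were lower in every bull, and CD163 overlapped between the groups.

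BRDT was low in the calves and among the more abundant genes in the bulls. The gene (ENSBTAG00000003724, chromosome 3, 51371601 to 51406793 on an ARS-UCD assembly) stood at 1.33 FPKM for calf 1, 1.06 for calf 2 and 1.57 for calf 3. For bull 1, bull 2 and bull 3 the values were 33.2, 36.5 and 33.9. Every bull stood far above every calf, and the spread within either group was small beside the gap. The mean rose from 1.32 ± 0.259 to 34.5 ± 1.70 FPKM (SD, n = 3 each), a ratio of means of 26.2. On the scale of log2(FPKM + 1), on which changes of low values are understated, the difference of bulls minus calves was 3.94 (SE 0.16, 95% confidence interval 3.54 to 4.34, limma adjusted p = 1.29e-05). Without calf 3 it was 4.02 (limma adjusted p = 1.85e-06). A gene was called changed where the limma adjusted p was below 0.05 and the log2 fold change at least 1 in size. BRDT was called higher, as were 35.7% of the 18115 genes tested (37.9% without calf 3), and 94.9% of the genes had a smaller log2 fold change than BRDT. An exact permutation test of the single gene over the 20 labelings gave p = 0.1, the smallest value that 3 libraries against 3 allow.

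**Figure D1:**
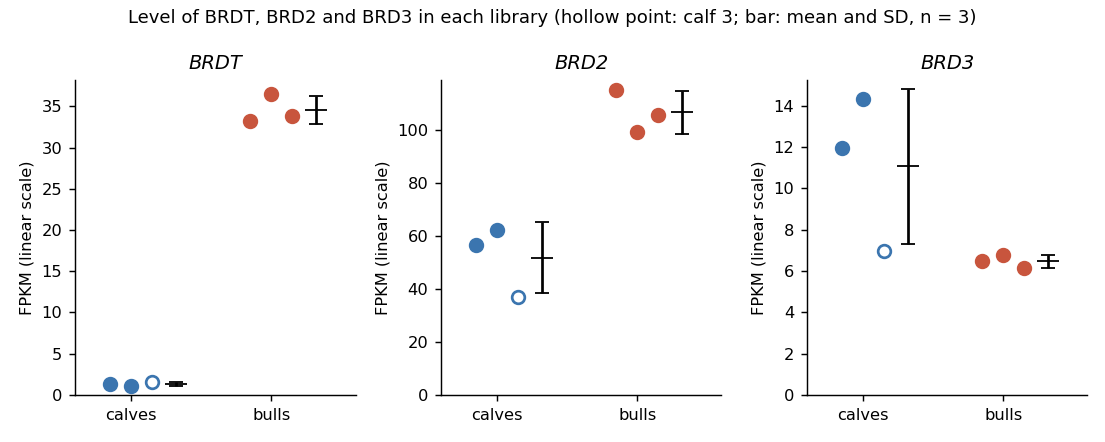
FPKM of BRDT, BRD2 and BRD3 in each library (linear axes that start at 0 and differ between panels), calves in blue and bulls in red, with the mean and SD of 3 libraries beside them and calf 3 as a hollow point. BRDT and BRD2 are higher in every bull than in every calf, and BRD3 is lower in every bull.

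The FPKM of the gene is the sum over 5 transcript entries, and in the bulls it rested on 1 of them. BRDT-201 (ENSBTAT00000017938, chromosome 3, 51387228 to 51406793), an annotated transcript, was at 32.9, 35.9 and 33.4 FPKM in bull 1, bull 2 and bull 3 and at 1.03 in calf 1, 1.03 in calf 2 and 0 in calf 3. It made up 99.0%, 98.4% and 98.6% of the gene's sum in the bulls, 77.2% in calf 1, 97.9% in calf 2 and 0% in calf 3. The highest calf value of the gene, 1.57 in calf 3, thus came wholly from other entries. BRDT-201 was called higher in bulls with a log2 fold change of 4.45 (SE 0.32, limma adjusted p = 0.000104), and of 4.11 without calf 3 (limma adjusted p = 9.14e-06). BRDT-201 and BRD2-201 were the member transcripts called higher, 2 of the 4 tested, where 34.8% of the 23212 transcripts tested were called higher. Without calf 3, BRDT-201 alone was called higher among them, against 36.1% of all transcripts. BRD2-201 was not called without calf 3 (0.83) or without bull 1 (limma adjusted p = 0.0530).

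The other BRDT entries stayed under an FPKM of 1 in every library and were not tested. TCONS_00260591, an assembled entry that extends beyond BRDT-201 from position 51371601 to 51400457, was at 0.921 in calf 3 and at most 0.163 elsewhere. BRDT-AS1 (TCONS_00260601, 51393810 to 51403960), named as an antisense RNA in the table, was at 0.223, 0 and 0.594 in the calves and at 0.174, 0.246 and 0.246 in the bulls. For both of these the groups overlapped and calf 3 held the highest value. TCONS_00260600 (51390537 to 51400457) was at 0.00188, 0.0226 and 0.0585 in the calves and at 0.0912, 0.170 and 0.178 in the bulls. These values did not overlap, but all lay near 0, and the share of all transcripts without overlap was not computed. BRDT-202, the remaining annotated transcript, was listed above 0 in bull 2 alone, at 0.00133. The table gives no strand, and how the FPKM of overlapping entries was split between them is not given in the sources used here.

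**Figure D2:**
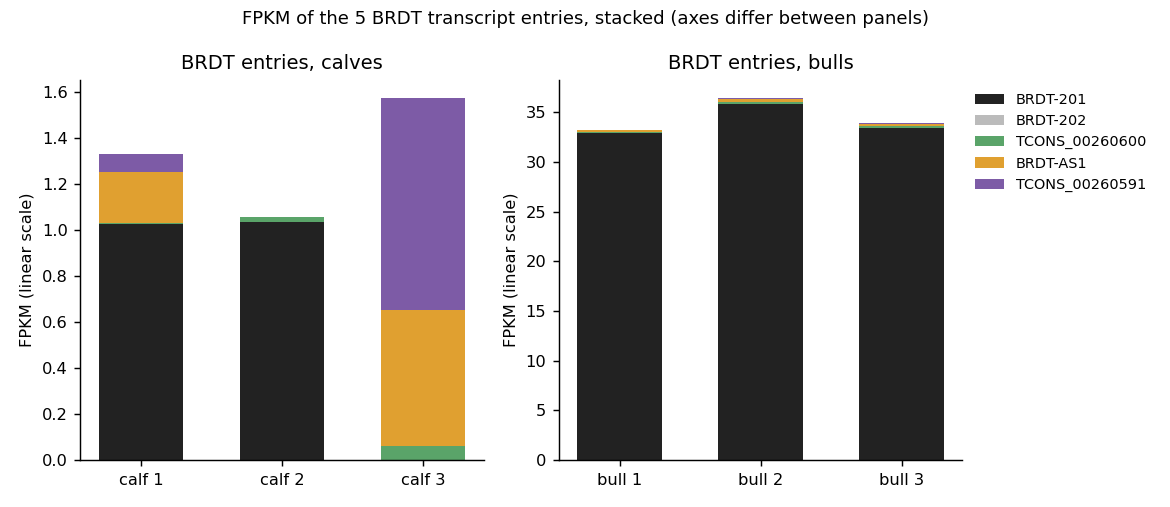
Stacked FPKM of the 5 BRDT transcript entries in each calf (left) and each bull (right, on a wider axis). BRDT-201 (black) fills 98.4% to 99.0% of each bull bar, while in calf 3 it is absent and TCONS_00260591 (purple, 58.6%) and BRDT-AS1 (orange, 37.7%) make up most of the bar.

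EPHX4, a neighbouring gene, overlaps the start of TCONS_00260591 and encodes an epoxide hydrolase family protein. It was at 0.569 and 0.875 FPKM in calf 1 and calf 2, 4.71 in calf 3 and 3.05, 2.91 and 2.83 in the bulls. Like that entry, EPHX4 was highest in calf 3, and whether reads of the overlapping stretch were shared between them was not tested. Its log2 fold change of 0.62 was not called (limma adjusted p = 0.330), while without calf 3 EPHX4 was called higher at 1.20 (limma adjusted p = 0.000473). Among entries with an ENSBTAG identifier, the nearest that ends before BRDT was ENSBTAG00000040248, 37489 bp away and within the span of EPHX4. It was at 0, 0.0179 and 0.0497 FPKM in the calves and at 45.6, 41.2 and 66.5 in the bulls. This entry was called higher (log2 fold change 5.64, limma adjusted p = 1.16e-05, and 5.66 without calf 3). The nearest such entry after BRDT, ENSBTAG00000054884, lies 9528 bp beyond the end of BRDT. It was called higher in bulls (log2 fold change 3.20, limma adjusted p = 3.10e-05, and 3.09 without calf 3), with 0.289, 0.224 and 0 FPKM in the calves and 9.16, 9.68 and 10.2 in the bulls.

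BRD2 was the most abundant of the 3 genes in every library, and its level was higher in bulls. BRD2 (ENSBTAG00000011074, chromosome 23, 7286988 to 7294770) was at 56.3 FPKM for calf 1, 62.2 for calf 2 and 36.8 for calf 3. The bulls, in order of number, were at 115, 99.0 and 106 FPKM. The groups did not overlap, and calf 3 was the lowest of the 6 libraries. The means were 51.8 ± 13.3 and 106 ± 7.97 FPKM (SD, n = 3 each), and the log2 fold change was 1.06 (SE 0.24, 95% confidence interval 0.48 to 1.63, limma adjusted p = 0.0100). This passed the threshold of 1 by a small margin, and it did so with calf 3 in the group. Without calf 3 the log2 fold change was 0.83 (SE 0.11, limma adjusted p = 0.000625), which passed on p and missed the fold threshold, so that BRD2 was then not called. The median of the 18115 genes was 0.43 on this scale, and BRD2 lay 0.63 above it.

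The call of BRD2 also depended on how the libraries were scaled. After quantile normalization, where 21.1% of the genes were called higher and 25.1% lower, the log2 fold change of BRD2 was 0.27 (limma adjusted p = 0.372), and after upper quartile scaling 0.43 (limma adjusted p = 0.187). The median of all genes moved with it, to -0.26 and -0.09, and BRD2 stayed 0.53 and 0.52 above the median. Of the tested genes, 96.1%, 96.3% and 92.9% lay below BRD2 in calf 1, calf 2 and calf 3, and 96.0% to 96.6% in the bulls. By rank, calf 1 and calf 2 thus lay within the range of the bulls. BRD2-201 is the sole transcript entry of the gene and holds the same FPKM values, while its adjusted p comes from the table of transcripts. The entry ENSBTAG00000052980, which ends 21 bp before BRD2 begins, was at 36.9, 38.0 and 29.3 FPKM in the calves and at 35.9, 39.0 and 38.9 in the bulls (log2 fold change 0.13, limma adjusted p = 0.515, and 0.02 without calf 3).

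BRD3 was lower in bulls than in calf 1 and calf 2, and just below calf 3. BRD3 (ENSBTAG00000010582, chromosome 11, 104791165 to 104838104) was at 11.9 FPKM for calf 1, 14.3 for calf 2 and 6.96 for calf 3. The bulls, in order of number, were at 6.48, 6.76 and 6.15 FPKM. The groups did not overlap, but calf 3 lay next to the bulls and not next to the other calves. The means were 11.1 ± 3.75 and 6.46 ± 0.306 FPKM (SD, n = 3 each), and the log2 fold change of -0.64 (SE 0.27, 95% confidence interval -1.31 to 0.02, limma adjusted p = 0.0906) was not called. Called lower were 9.61% of all genes, and 13.6% without calf 3. Without calf 3 the log2 fold change of BRD3 was -0.92 (limma adjusted p = 0.00103), still short of the fold threshold. The values of BRDT, BRD2 and BRD3 did not overlap between the groups, and neither did those of 67.4% of all genes tested.

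The direction of BRD3 held under every scaling tried. Relative to the median of all genes it lay at -1.07 in the deposited scaling, -0.93 after quantile normalization and -1.12 after upper quartile scaling. In the latter 2 settings BRD3 was called lower, at -1.19 (limma adjusted p = 0.0151) and -1.21 (limma adjusted p = 0.0130). After upper quartile scaling 20.4% of all genes were called lower.

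BRD3 was made up of 2 transcript entries of about equal level in the calves. The annotated BRD3-201 (104804414 to 104838104) had an FPKM of 6.41, 7.59 and 3.84 in the calves and 3.76, 4.22 and 3.85 in the bulls, and the groups overlapped through calf 3. The assembled TCONS_00052260 (104791165 to 104816737) had 5.51, 6.72 and 3.13 in the calves and 2.72, 2.54 and 2.30 in the bulls, without overlap (the share of all transcripts without overlap was not computed). Neither was called, with log2 fold changes of -0.45 (limma adjusted p = 0.194) and -0.75 (limma adjusted p = 0.0640). Without calf 3, TCONS_00052260 was called lower at -1.01 (limma adjusted p = 0.00304), as were 13.1% of all transcripts in that comparison, while BRD3-201 at -0.69 was not (limma adjusted p = 0.00862). The share of BRD3-201 in the gene's FPKM was 53.8%, 53.0% and 55.1% in the calves and 58.0%, 62.4% and 62.7% in the bulls. It was thus higher in every bull, by 7.06 percentage points on average and by 7.63 without calf 3 (with all libraries p = 0.1 by an exact two-sided permutation test, which can give no smaller value, and 0.167 after adjustment over 5 shares). VAV2, a guanine nucleotide exchange factor gene that ends 13189 bp before BRD3, was called lower in bulls at a log2 fold change of -1.97 (limma adjusted p = 0.00394), and of -2.35 without calf 3.

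**Figure D3:**
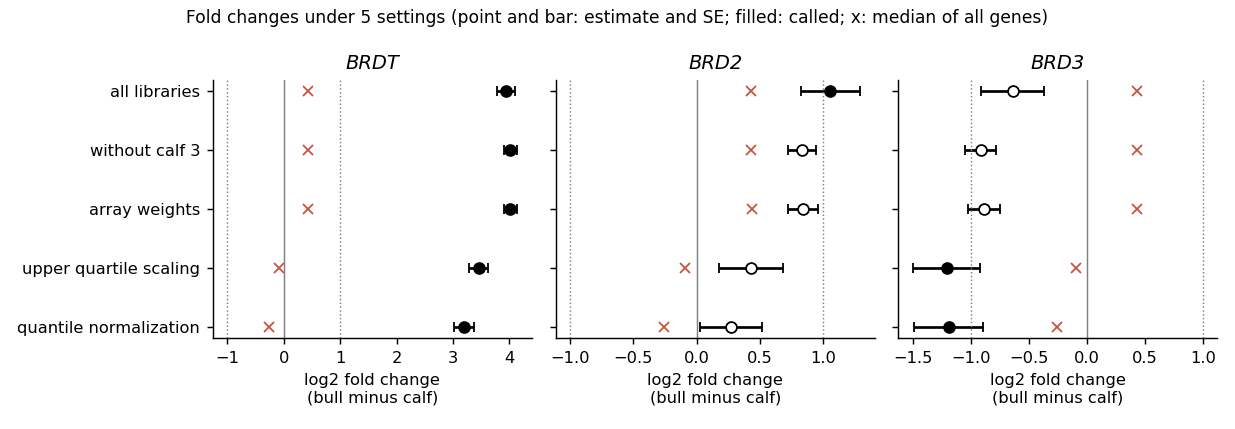
Log2 fold change of bulls minus calves (horizontal axes, which differ between panels) of BRDT, BRD2 and BRD3 with its SE in 5 settings of the comparison. Filled points were called, crosses give the median of all genes and dotted lines the fold threshold. Of the 5 settings, BRDT is called in all and BRD3 after both rescalings. BRD2 is called only with all libraries in the deposited scaling and without array weights.

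The 3 genes were also set against each other within each library. In a ratio of FPKM the scaling of the library cancels. In a ratio of FPKM + 1 it cancels only in part, and least at low values such as those of BRDT in calves. FPKM is a value per length and allows levels of different genes to be compared. The ratio of BRDT to BRD3 was 0.112, 0.0738 and 0.226 in the calves, in order of number, and 5.13, 5.39 and 5.51 in the bulls. BRDT was thus the lower of the pair in every calf and the higher in every bull. In calf 3 the BRDT level came wholly from entries other than BRDT-201. The ratio of BRDT to BRD2 was 0.0236, 0.0170 and 0.0428 in the calves and 0.289, 0.368 and 0.321 in the bulls, so BRD2 remained the higher in all libraries. As log2 ratios of FPKM + 1, the differences of bulls minus calves were 4.58 for BRDT to BRD3 and 2.88 for BRDT to BRD2, and 4.93 and 3.19 without calf 3.

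The ratio of BRD2 to BRD3 separated the groups with little spread inside them. It was 4.72, 4.35 and 5.28 in the calves and 17.7, 14.7 and 17.2 in the bulls. Calf 3, which was low for both genes, fell beside calf 1 and calf 2 in their ratio. The log2 ratio was 2.15 ± 0.10 in calves and 3.85 ± 0.14 in bulls (SD, n = 3 each), a difference of 1.70, or 1.75 without calf 3. For each of the 3 ratios the two-sided exact permutation test gave p = 0.1, the smallest possible.

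**Figure D4:**
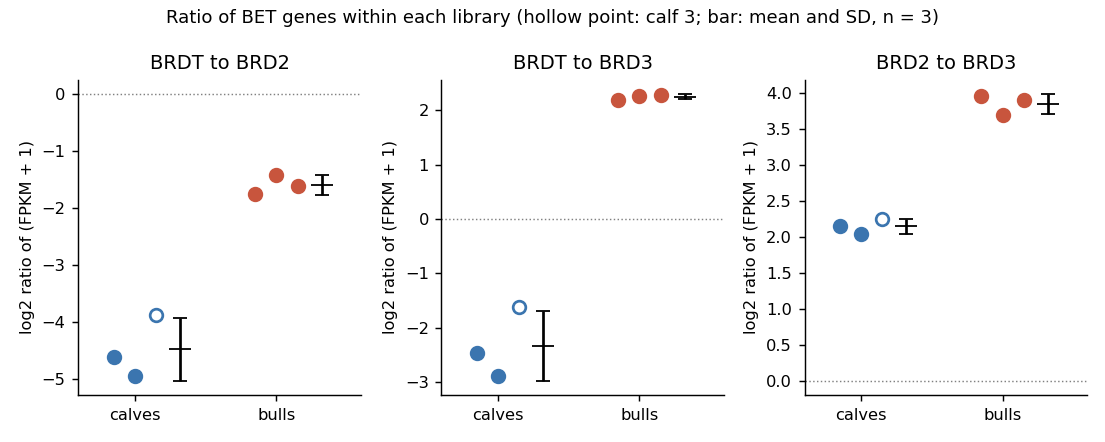
Log2 ratios of FPKM + 1 for the 3 pairs of genes within each library (vertical axes, which differ between panels; dotted line at equal levels where drawn), with mean and SD of 3 libraries and calf 3 as a hollow point. The ratio of BRDT to BRD3 is below 0 in all calves and above 0 in all bulls, and the ratio of BRD2 to BRD3 in calf 3, at 2.25, lies beside those of calf 1 and calf 2.

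The order of the levels differed between the groups. In each calf it ran BRD2, BRD3, BRDT from high to low, and in each bull BRD2, BRDT, BRD3. The values of the 3 genes did not overlap within either group. BRDT held 1.91%, 1.36% and 3.47% of the summed FPKM of the 3 genes in the calves and 21.5%, 25.6% and 23.3% in the bulls. BRD3 held 17.1%, 18.5% and 15.4% in the calves and 4.19%, 4.75% and 4.22% in the bulls. BRD2 held most of the sum throughout, 80.2% to 81.2% in the calves and 69.6% to 74.3% in the bulls. The sum itself was 69.6, 77.6 and 45.3 FPKM in the calves and 155, 142 and 146 in the bulls. Among all tested genes of a library, BRDT stood above 25.1% to 32.9% in the calves and above 85.4% to 86.7% in the bulls. The share and rank of BRDT in calf 3 rest on entries other than BRDT-201. BRD3 stood above 75.7%, 78.6% and 60.4% in the calves and above 46.8% to 50.1% in the bulls.

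For each member, the 3 genes whose log2 values followed it most closely over the 6 libraries were taken from the 13392 tested genes with a symbol. The 6 libraries form 2 groups that lie far apart, so the correlations are given as a description. Without calf 3, the genes named here had r of 0.9978 to 0.9999 with their member over the remaining 5 libraries. PEBP4 (r = 0.9998), VWA3A and FAM241A were nearest to BRDT, among 986 genes with r above 0.99. PEBP4, of the phosphatidylethanolamine-binding protein family, was at 0.245, 0.0175 and 0.279 FPKM in the calves and at 33.2, 39.6 and 36.0 in the bulls. LRWD1 (r = 0.9993), which encodes a protein associated with the origin recognition complex, SH3D19 and DCAF15, a substrate receptor of a ubiquitin ligase, were nearest to BRD2, among 149 genes above 0.99. LRWD1 was at 8.05, 9.36 and 3.83 in the calves and at 25.3, 21.4 and 22.2 in the bulls, with calf 3 lowest as for BRD2. C5H12orf45 (r = 0.998), SOX12, a transcription factor gene, and ACVR2B, an activin receptor gene, were nearest to BRD3, among 22 genes above 0.99. SOX12 was at 6.75, 9.82 and 2.52 in the calves and at 2.05, 2.07 and 1.92 in the bulls, with calf 3 beside the bulls as for BRD3.

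Other genes with a bromodomain moved in both directions. Of 37 listed, 34 were found, in 36 rows of which 35 were tested, with ATAD2 and SP140L holding 2 rows each. Called higher in bulls were 7 rows and lower 5, against 35.7% and 9.61% of all genes, with a median log2 fold change of -0.21 against 0.43 over all genes. Without calf 3 the counts were 9 and 3 (37.9% and 13.6% of all genes), and after quantile normalization 6 and 14 (21.1% and 25.1%). TRIM24, a co-regulator of transcription, had an FPKM of 11.5, 13.5 and 11.8 in the calves and 78.1, 78.6 and 86.3 in the bulls and rose the most (log2 fold change 2.63, limma adjusted p = 3.17e-05). TRIM66, a relative of TRIM24, rose by 2.32 (limma adjusted p = 0.00199). Without calf 3 TRIM24 rose by 2.60 and TRIM66 by 2.57. BAZ1A, TRIM28, BRD1, TRIM33 and SMARCA4 were the others called higher, at 1.23 to 2.25, and were also called without calf 3. SP140L in 1 of its rows fell by 1.31 (limma adjusted p = 0.0159), and KMT2A, a histone lysine methyltransferase gene, fell by 1.15 (limma adjusted p = 0.00656). KMT2A, ATAD2B, ASH1L and CREBBP, the others called lower, were at -0.94, -0.70, -0.68 and -0.93 without calf 3 and then not called. SP140L lost the call without calf 2 or any 1 of the bulls, at adjusted p of 0.0504 to 0.0632 (limma), and was called without calf 3, at -1.65.

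P-TEFb is the kinase complex that releases paused RNA polymerase into elongation. Its kinase gene CDK9 was at 27.6, 32.5 and 21.9 FPKM in the calves and at 20.7, 22.9 and 23.8 in the bulls, with a log2 fold change of -0.26 that was not called (limma adjusted p = 0.281), and the cyclin gene CCNT1 was likewise not called (-0.39, limma adjusted p = 0.0722). Of 15 tested genes of P-TEFb, its inhibitors and the super elongation complex, 5 were called higher and 4 lower (median 0.16, against 0.43 over all genes), where 35.7% of all genes were called higher and 9.61% lower. The counts were 5 and 3 without calf 3 (37.9% and 13.6% of all genes) and 4 and 4 after quantile normalization (21.1% and 25.1%). ELL, an elongation factor gene, was at 9.60, 11.4 and 4.95 FPKM in the calves and at 50.8, 52.8 and 48.3 in the bulls (log2 fold change 2.48, limma adjusted p = 0.000702). MEPCE, the capping enzyme of the small nuclear RNA that holds P-TEFb inactive, rose by 2.37 (limma adjusted p = 0.00107). The genes of the P-TEFb inhibitors went opposite ways, HEXIM2 being called higher at 2.30 and HEXIM1 lower at -1.51. MLLT3 fell by 1.78 (limma adjusted p = 0.0253) with a calf 3 value of 11.8 FPKM against 2.88 and 2.59 in the other calves, and by 1.19 without calf 3, still called, but without any 1 of the bulls it was not (limma adjusted p 0.0733 to 0.0874). AFF1, a scaffold gene of the super elongation complex, fell by 1.78 (limma adjusted p = 0.00776). CCNT2, called lower at -1.04, was not called without calf 3, at -0.96. Without calf 3 the other called genes named here kept their calls, ELL at 2.17, MEPCE at 2.03, HEXIM2 at 1.92, HEXIM1 at -1.63 and AFF1 at -2.02, and CDK9 (-0.40) and CCNT1 (-0.46) were again not called.

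Genes of histone acetyltransferases and of the histone deacetylase and sirtuin families were counted next. They were listed by family, and which of them act on the acetyl marks bound by BET proteins was not tested. Of 12 histone acetyltransferase genes tested, 4 were called higher (KAT8, KAT7, HAT1 and KAT5) and 1 lower (CREBBP). Of all genes 35.7% and 9.61% were, and the median was 0.46 against 0.43. Without calf 3, 5 were called higher and 0 lower, against 37.9% and 13.6% of all genes. EP300 then joined the higher at 1.20 and CREBBP stood at -0.93. CREBBP, at -1.00 with all libraries, was also not called without bull 2 (-0.98). KAT8, which acetylates histone H4, was at 23.2, 21.9 and 10.2 FPKM in the calves and at 148, 126 and 143 in the bulls (log2 fold change 2.93, limma adjusted p = 0.000548), and KAT7 rose by 1.85 (limma adjusted p = 0.000162). Without calf 3 they rose by 2.57 and 1.79. Of 18 genes of histone deacetylases and sirtuins tested, 6 were called higher and 1 lower, with a median of 0.35 against 0.43. The shares over all genes were again 35.7% and 9.61%. Without calf 3 as many were called, against 37.9% and 13.6% of all genes. Of the 6 then called higher, 5 were the same genes (HDAC1 was lost and SIRT2 gained). HDAC9 was at 2.51, 1.96 and 3.49 FPKM in the calves and at 25.3, 21.0 and 26.1 in the bulls (log2 fold change 2.80, limma adjusted p = 0.000116, and 2.96 without calf 3). HDAC11 rose by 2.50 (limma adjusted p = 0.0167), with 69.4 FPKM in calf 3 against 13.2 and 14.2 in the other calves. Without calf 3 it rose by 3.25, while without calf 2 or any 1 of the bulls it was not called (limma adjusted p 0.0517 to 0.0619). HDAC7 was called lower at -1.30 (limma adjusted p = 0.000861) and without calf 3 at -1.31. After quantile normalization the counts of higher and lower became 2 and 3 for the acetyltransferases and 2 and 6 for the deacetylases, where 21.1% of all genes were called higher and 25.1% lower.

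Genes linked to the exchange of histones for protamines in spermatids, in which BRDT takes part, were mostly higher in bulls. Of 15 tested, 9 were called higher and 1 lower, against 35.7% and 9.61% of all genes. The median log2 fold change was 2.46 against 0.43 over all genes. Without calf 3 the same 9 and 1 were called, against 37.9% and 13.6% of all genes. After quantile normalization 8 were called higher and 1 lower, against 21.1% and 25.1% of all genes. The protamine gene PRM1 was at 0.314, 0.196 and 0.647 FPKM in the calves and at 11994, 10299 and 10079 in the bulls (log2 fold change 12.94, limma adjusted p = 2.53e-06), and the transition protein gene TNP1 rose by 10.62 (limma adjusted p = 2.53e-06). Without calf 3 they rose by 13.07 and 10.54. These 2 genes, with PRM2 and TNP2, also belong to the markers of elongating spermatids. Their rise is thus the same observation as that of the markers, and the count and median of the list include it. KDM3A, EPC1, RNF8, EPC2 and NUTM1 were not called. CDYL, CHD5, PSME4, MORF4L1 and KAT5, which act in histone acylation, its readout or histone removal, were the others called higher, at 1.59 to 3.48. MSL3 was the gene called lower, at -1.05 (limma adjusted p = 0.0228). When any 1 of calf 1, calf 2 or the bulls was left out it lay at -0.86 to -1.12 and was not called (limma adjusted p 0.0596 to 0.0793), while without calf 3 it was called at -1.35. NUTM1, whose product recruits the acetyltransferase EP300 ahead of histone removal, was at 7.09, 6.25 and 0 FPKM in the calves and at 9.43, 9.40 and 8.53 in the bulls. Its log2 fold change was 1.38 (limma adjusted p = 0.199), and 0.40 without calf 3.

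**Figure D5:**
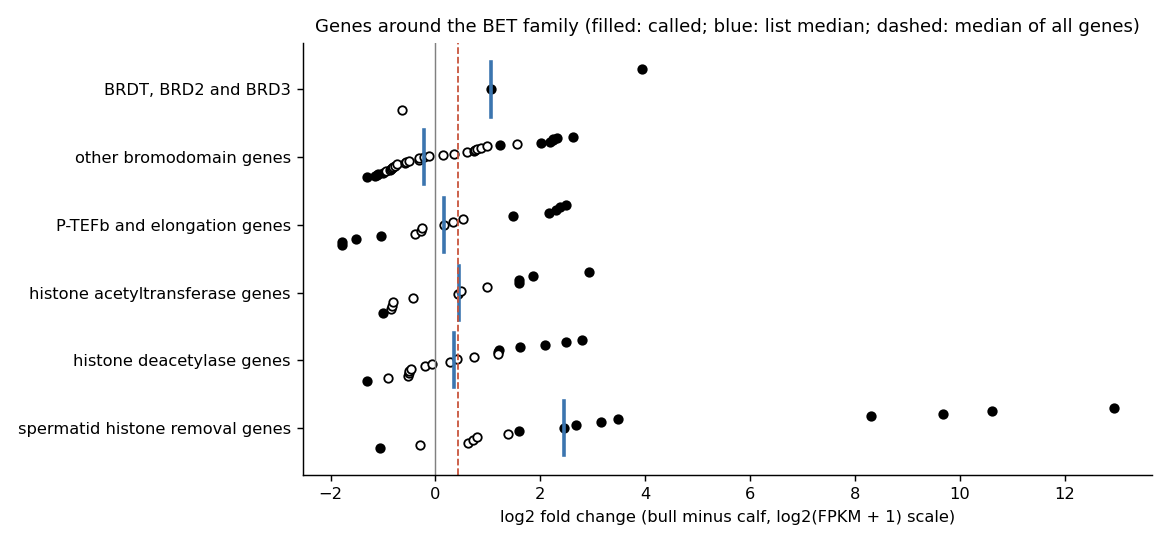
Log2 fold change of bulls minus calves for every tested gene of 6 lists, 1 point per row of the gene table, filled where called. Blue bars give the median of each list, from -0.21 for the other bromodomain genes to 2.46 for the genes of spermatid histone removal, and the dashed line the median of all genes, 0.43.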

How the data were processed

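The values are FPKM of genes and of transcripts, 1 column per library, deposited by the authors without read counts, so the depth behind a value is unknown and no counting interval was computed. Per the Methods, the authors removed ribosomal reads with Bowtie2, mapped with TopHat2 and assembled transcripts with StringTie; which tool made the FPKM is not given in the sources used here. UMD3.1.1 is the assembly named there, but 99.6% of 16361 shared symbols lay on the RefSeq locus of the same symbol on ARS-UCD2.0, so positions are given as those of an ARS-UCD assembly. Samples are separate animals, 3 per group.

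Features that reached an FPKM of 1 in 3 or more of the 6 libraries were transformed to log2(FPKM + 1) and fitted with limma 3.58.1 (group means, empirical Bayes trend) in R 4.3.3 with version 1.17.8 of data.table. Benjamini-Hochberg adjustment covered the whole table of genes or of transcripts. Features were called at an adjusted p under 0.05 with a log2 fold change of 1 or more in size. Ratios and shares were compared by exact permutation of the 20 labelings, two-sided. The scripts were tested on simulated data. Figures used Python 3.11.15 and matplotlib 3.10.9.

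The alternatives were a pseudocount of 0.1, no filter, quantile normalization, upper quartile scaling of the tested genes, no trend, array weights, a replicate block and each library left out in turn. The members, gene lists and markers were chosen with earlier results of these data known. Named by rule were the members with their transcripts, the 3 genes most correlated with each, and in each list the called genes with the 2 largest increases and decreases. Other genes named were chosen after their values were seen.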

Additional observations from a re-analysis of the deposited data

How the results depend on the processing

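BRDT was called higher in bulls under every alternative, with a log2 fold change of 3.20 to 4.62 and a limma adjusted p of at most 0.000989. BRD2 was not called after quantile normalization (0.27), after upper quartile scaling (0.43) or with array weights (0.84), and ranged from 0.83 to 1.21 when each library in turn was left out, the lowest without calf 3. BRD3 became called after quantile normalization (-1.19) and upper quartile scaling (-1.21). The difference in log2 ratio became 3.55 for BRDT to BRD2 and 5.33 for BRDT to BRD3 with a pseudocount of 0.1. The median of all genes moved from 0.43 to -0.26 after quantile normalization and -0.09 after upper quartile scaling. The cause of these changes was not tested. Apart from BRDT, BRD2 and BRD3, 30 tested genes and transcripts were named by rule. Of 390 repeats for these, 352 kept direction and call, 27 lost and 11 gained a call and 0 reversed. Genes named after their values were seen are not in this count.

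Libraries of the 2 groups share replicate numbers. Deviations of same-numbered libraries correlated at 0.0277, 0.0246 and 0.0341, and each library correlated best with its own number. The correlations are small, but 3 libraries per group cannot decide whether the numbers pair the libraries. With the replicate block 8128 genes were called against 8215, and BRDT (3.94), BRD2 (1.06) and BRD3 (-0.64) kept their calls. The depth behind the low calf values of BRDT is unknown, and 3 libraries per group limit a single permutation test to p = 0.1.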
